A study of Mus musculus with 9 samples.

Results

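Cytotoxic T cells kill target cells by releasing granules and secreting cytokines, and 10 genes of that program other than Gzma were examined for histone H3 lysine 27 acetylation (H3K27ac) in naive CD8+ T cells with or without Tcf1 and Lef1. The genes were Prf1, Gzmk, Gzmm, Gzmc, Nkg7, Ifng, Tnf, Ctsw, Srgn and Serpinb9. They were chosen by name for their function, with earlier results of these data known. They are 10 of 22380 protein-coding genes in the GENCODE vM1 annotation of the mouse mm9 genome. Each gene was assigned every island, a stretch enriched for H3K27ac, that overlapped its body or the 50 kb upstream of its transcription start site (TSS).

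H3K27ac ChIP-seq was performed on WT and dKO cells, with 4 WT and 3 dKO samples and 1 input sample per genotype. Both genotypes carried hCD2-Cre, a transgene that is most active in mature peripheral T cells, and Rosa26-lsl-GFP, which turns on GFP where Cre has acted. WT mice had intact Tcf7 (the gene of Tcf1) and Lef1, while dKO mice had both genes floxed, so that GFP marked the cells targeted for their loss. H3K27ac islands do not report the deletion itself. Mice were 6 to 12 weeks old, and GFP+ TCRbeta+ CD8+ cells of naive phenotype were sorted from the spleen. The authors pooled the samples of a genotype before calling islands. Each gene therefore has 1 value per genotype, none of the differences has a replicate check, and the 95% intervals cover counting error only. In a bulk population, a change in the share of cells that carry the mark and a change in the mark per cell cannot be told apart.

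H3K27ac is deposited at active enhancers and promoters. In killer cells, perforin opens a path into the target cell for granzymes, the serine proteases that trigger death. Naive CD8+ T cells hold few such granules until they are activated, whereas natural killer (NK) cells carry them constitutively.

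The WT list held 82668007 counts in 65563 islands and the dKO list 57665047 counts in 82213 islands. Counts were divided by the total of their list and are given per 1000000 island counts of the list (CPM). The naive CD8+ T cell markers Cd3e, Cd3d, Cd8a, Cd8b1, Ccr7 and Il7r each had an island within 1 kb of the TSS in both lists. Of the NK cell markers, Ncr1 had no island in either list, Klra8 and Klra4 had none within 1 kb of the TSS, and Klrb1c, Klre1, Tyrobp and Fcer1g had one there in both lists. The 7 NK markers summed to 564 CPM in WT and 590 CPM in dKO, with single genes from 0 to 203 CPM in WT and from 0 to 181 CPM in dKO. At a ratio of 1.5, 1 of the 6 NK markers with islands in both lists, Klra4, was higher in dKO (log2 ratio 0.997, interval 0.89 to 1.104). The part of other cells in the results below was not tested.

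The promoters that carry sequence matches discussed with their genes are shown first, to give the DNA on which the islands lie. Each is the 250 bases upstream of a TSS, read 5′ to 3′ on the strand of the gene from the NCBIM37 (mm9) assembly. Capitals mark every match, on either strand, to the core letters ATCAAAG of Tcf1 and Lef1 (CTTTGAT on the other strand), TGTGGT of Runx factors (ACCACA on the other strand) and GGTGTGA of T-box factors such as T-bet and Eomes (TCACACC on the other strand). Although TGTGGT and GGTGTGA can overlap in sequence, no 2 matches did so in the sequences printed here. Such a match is a description of the letters and not a binding site.
Prf1 promoter, chr10:60760334-60760583, plus strand: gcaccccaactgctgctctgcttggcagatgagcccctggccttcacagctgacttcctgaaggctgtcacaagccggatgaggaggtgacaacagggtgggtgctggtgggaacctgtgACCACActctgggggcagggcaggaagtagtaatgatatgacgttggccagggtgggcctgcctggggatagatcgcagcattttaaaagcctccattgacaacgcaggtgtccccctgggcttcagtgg
Gzmm promoter, chr10:79151515-79151764, plus strand: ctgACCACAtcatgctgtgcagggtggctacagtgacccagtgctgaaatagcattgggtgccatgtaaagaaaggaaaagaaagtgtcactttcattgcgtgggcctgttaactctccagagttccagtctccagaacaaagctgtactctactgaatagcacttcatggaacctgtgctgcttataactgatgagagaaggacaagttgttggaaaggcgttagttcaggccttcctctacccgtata
Gzmc promoter, chr14:56853494-56853743, minus strand: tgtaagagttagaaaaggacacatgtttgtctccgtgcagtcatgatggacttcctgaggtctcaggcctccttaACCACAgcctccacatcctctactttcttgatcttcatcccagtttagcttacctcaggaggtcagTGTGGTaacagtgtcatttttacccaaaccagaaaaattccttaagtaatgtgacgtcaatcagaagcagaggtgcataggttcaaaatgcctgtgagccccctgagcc
Nkg7 promoter, chr7:50692193-50692442, plus strand: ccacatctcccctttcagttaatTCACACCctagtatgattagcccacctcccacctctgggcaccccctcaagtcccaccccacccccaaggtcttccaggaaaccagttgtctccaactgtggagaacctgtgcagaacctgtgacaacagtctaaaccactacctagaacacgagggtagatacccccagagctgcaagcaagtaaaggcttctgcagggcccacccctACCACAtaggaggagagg
Srgn promoter of the shorter transcripts, chr10:61970846-61971095, minus strand: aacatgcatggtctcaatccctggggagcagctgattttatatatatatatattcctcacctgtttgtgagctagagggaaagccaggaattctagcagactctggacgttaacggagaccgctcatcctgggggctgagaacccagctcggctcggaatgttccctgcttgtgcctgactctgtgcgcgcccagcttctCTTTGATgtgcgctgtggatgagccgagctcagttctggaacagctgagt
At the 5′ ends of the 10 annotated genes, none of the promoters held the Tcf1 and Lef1 core, which 3.05% of 22375 promoters of this length did. The Runx core was present in 4 of the 10 (Prf1, Gzmm, Gzmc and Nkg7), against 12.8% of all promoters. Of these 10, the Nkg7 promoter alone held the T-box core, against 3.19% of all promoters, and the promoter of the shorter Gzmk transcripts held 1 as well. The single Tcf1 and Lef1 core found in a promoter of a member lay in the Srgn promoter of the shorter transcripts, which start 19.4 kb downstream of the annotated 5′ end. The merged regions of the 10 genes held 113 such cores. Across the merged regions described below, the Tcf1 and Lef1 core occurred 0.164 times per kb at the 10 genes and 0.163 times per kb in all regions of the series. In the same order, the Runx core occurred 0.912 and 0.909 times per kb, and the T-box core 0.182 and 0.16 times per kb.

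All 10 genes carried H3K27ac islands in both lists, as did 73.7% of protein-coding genes. All 10 also had an island within 1 kb of the TSS in both lists, against 58.5% of protein-coding genes. Several of these windows also hold neighbouring genes, only some of which are named below. Among the others are Esm1 within the Gzmk body and Siglecg upstream of Nkg7. The depth of islands in the windows had a median over the 10 genes of 2.73 CPM per kb in WT and 2.65 CPM per kb in dKO. Among the 16487 genes with islands in both lists, the medians were 2.74 and 2.38 CPM per kb.

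**Figure D1:**
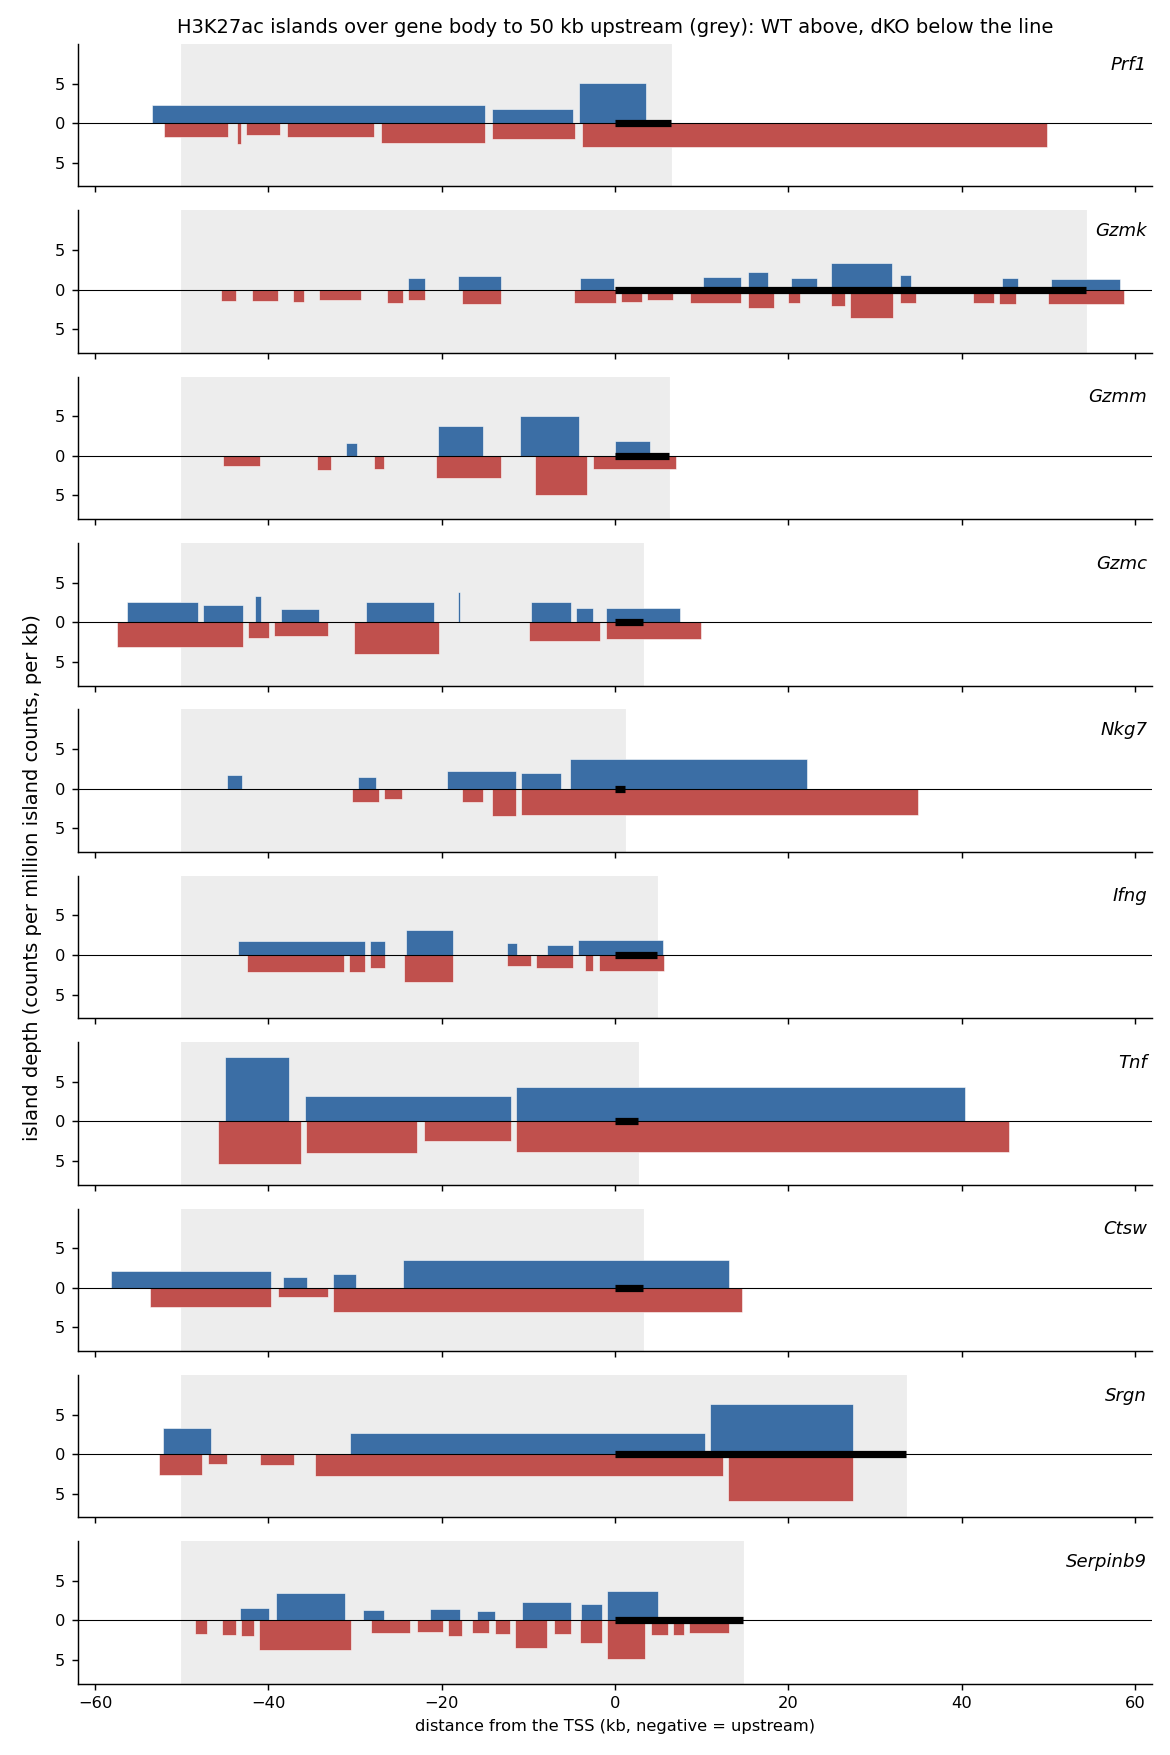
H3K27ac islands at the 10 genes, plotted as depth (CPM per kb of island, y axis) by distance from the TSS (kb, x axis), with WT above and dKO below the line in each panel. The grey band is the window of body and 50 kb upstream, the black bar is the gene body, and only islands that overlap the window are drawn. Gzmk had 10 islands in WT and 19 in dKO, whereas the dKO islands at the TSS of Prf1, Nkg7 and Tnf ended 49.8, 35.0 and 45.4 kb downstream.

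By scaled counts, 4 of the 10 genes (Prf1, Gzmc, Gzmk and Serpinb9) were at least 1.5 times higher in dKO, against 11.5% of all genes with islands in both lists. No member was at least 1.5 times lower, against 11.5% of all genes. The scaled count was higher in dKO to any degree at 9 of 10 members, against 47.4% of all genes, with Tnf the exception. The median log2 dKO to WT ratio was 0.32 over the 10 members and -0.03 over all genes. Gzmk and Serpinb9 stood only just past the threshold, at ratios of 1.53 and 1.51, and the counting interval of each reached below it. At a ratio of 2, no member was called in either direction, against 4.82% of all genes higher and 3.88% lower.

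With whole islands summed, the difference lay mainly in how much DNA the islands covered. Islands covered more kb in dKO than in WT at 10 of 10 members, against 65.1% of all genes, with a median log2 width ratio of 0.35 for the members and 0.17 for all genes. These widths include the parts of islands past the window, such as 43.4 kb of the dKO TSS island of Prf1 and 33.8 kb of that of Nkg7. With such parts left out, Prf1, Nkg7 and Ifng were not wider in dKO. The same share over all genes was not computed. By counts per covered kb, no member reached a ratio of 1.5 in either direction, against 0.425% of all genes called higher and 9.28% called lower. The depth was higher in dKO to any degree at 4 of 10 members (Gzmc, Ifng, Serpinb9 and Nkg7), against 20.6% of all genes. Median log2 depth ratios were -0.03 for the members and -0.16 for all genes. No test was made of whether the 10 genes differ from the rest. The number of members higher by counts also rested on the window, since it was 1 with 10 kb or 100 kb upstream, and 2 (with 2 lower) when islands were counted by their midpoint. The median log2 count ratio was then 0.38, 0.34 and 0.067, and it was 0.15 with islands clipped at the window and 0.14 with whole merged regions.

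**Figure D2:**
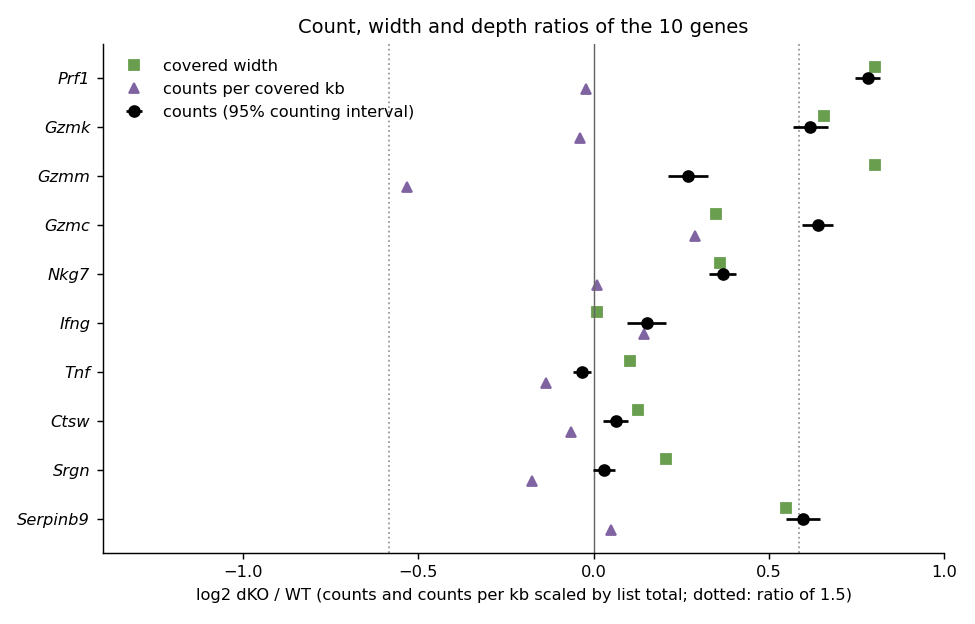
Log2 dKO to WT ratio of scaled counts (circles, bars for the 95% counting interval), of the covered width of whole islands (squares) and of counts per covered kb (triangles) for the 10 genes (y axis). Dotted lines mark a ratio of 1.5. The circles of 4 genes lie right of the upper line, all squares lie right of 0, and the triangles lie between -0.53 for Gzmm and 0.29 for Gzmc.

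**Figure D3:**
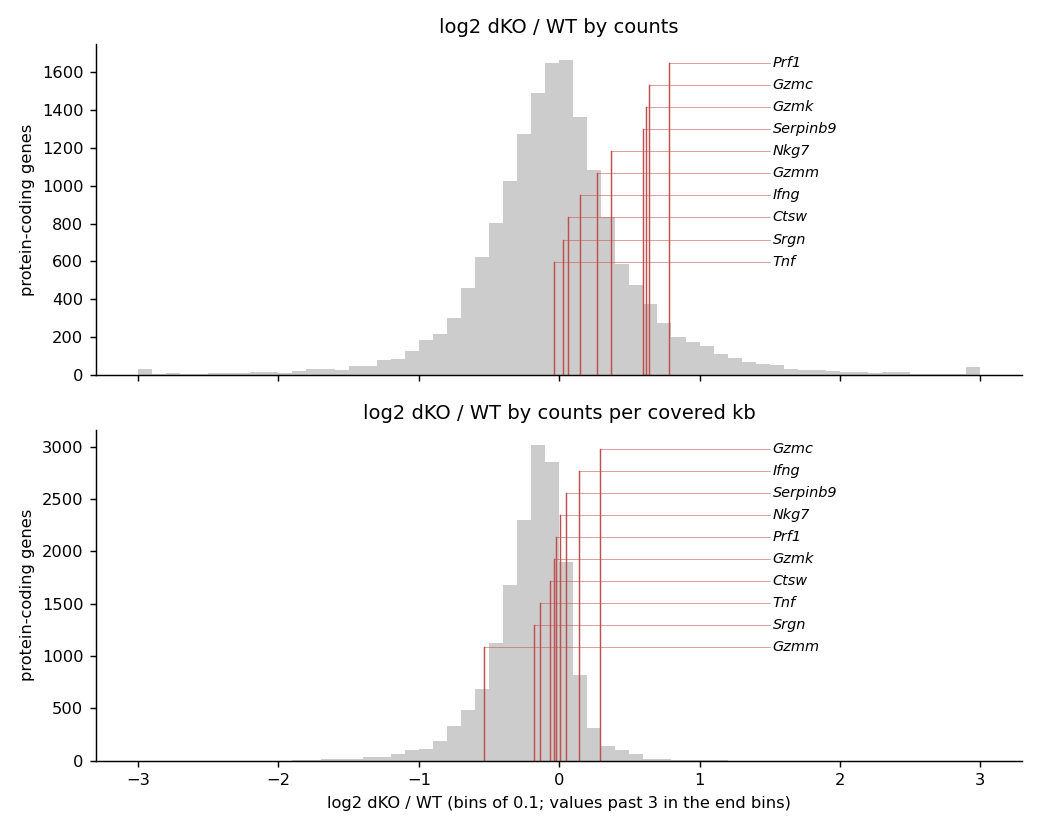
Distribution of the log2 dKO to WT ratio over the 16487 genes covered in both lists (grey bars, number of genes per bin of 0.1), by counts (top) and by counts per covered kb (bottom), with each of the 10 genes as a labelled line. Prf1 lay highest by counts at 0.78, and Gzmc lay highest by counts per kb at 0.29, above 97.6% of genes.

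Prf1 (ENSMUSG00000037202.5, chr10:60760584-60767011, plus strand) encodes perforin, the pore-forming protein of the granules. Its window held 3 islands with 11825 counts over 55.6 kb in WT and 7 islands with 14180 counts over 97 kb in dKO, or 143 and 246 CPM. The log2 ratio was 0.78 (0.75 to 0.82), the highest of the 10 members, with a width ratio of 0.80 and a depth ratio (counts per covered kb) of -0.021. All width and depth ratios are dKO to WT and on the log2 scale. That value rested on where islands ended. In dKO a single island of 53.6 kb began 3.8 kb upstream of the TSS and ended 49.8 kb downstream of it, and 43.4 kb of this island lay past the end of the gene. In WT the island at the TSS was 7.8 kb wide, from 4.2 kb upstream to 3.6 kb downstream, and the islands farther downstream were outside the window. When all islands of the merged region were counted in both lists, WT had 10641 counts (42.2 kb) and dKO had 9230 counts (53.6 kb), which gave a log2 ratio of 0.31 (0.27 to 0.36). The TSS island was deeper in WT, at 5.10 CPM per kb, than the long dKO island, at 2.99 CPM per kb, although the latter averages over more DNA. Upstream of the TSS region, the order was turned, with 8535 counts in WT and 5048 counts in dKO (log2 ratio -0.24, interval -0.29 to -0.19). There, 1 WT island of 38.4 kb corresponded to 6 dKO islands that covered 34.6 kb. This upstream region also holds the promoter of Adamts14. Counting only the part of each island inside the window gave a log2 ratio of -0.26, and counting only islands with their midpoint in the window gave -0.74. The midpoint rule left out the whole dKO island at the TSS and kept the WT island there. The Prf1 promoter shown above holds 1 Runx core.

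Gzmk (ENSMUSG00000042385.8, chr13:113961816-114016116, minus strand) encodes granzyme K, a trypsin-like protease. It had 10 islands with 6071 counts over 38.8 kb in WT and 19 islands with 6500 counts over 61.2 kb in dKO. The scaled count was 73.4 CPM in WT and 113 CPM in dKO, a log2 ratio of 0.62 (0.57 to 0.67). Width accounted for 0.66 of this and depth for -0.039. Merging the islands of both lists gave 18 regions at Gzmk, 10 with islands in both lists, 8 with a dKO island alone and none with a WT island alone. Of the dKO-only regions, 5 lay between 24.5 and 45.5 kb upstream of the annotated TSS, and the others lay within the gene body. Upstream of the TSS, islands summed to 955 WT counts over 7.0 kb and 1717 dKO counts over 19.2 kb, for a log2 ratio of 1.37 (1.252 to 1.48). The deepest region, from 24.9 to 32.1 kb into the gene, went the other way, with 1937 WT and 1224 dKO counts (log2 ratio -0.14, interval -0.25 to -0.04). The annotated 5′ end of Gzmk belongs to a long transcript, and the shorter transcripts start 45.0 kb downstream. A window drawn from the shorter transcripts held 5116 counts in WT and 4783 counts in dKO, with a log2 ratio of 0.42, below the threshold.

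Gzmk also lay within a super enhancer (SE) that the study listed as dKO-prepotent, although not for Gzmk. This SE was chosen on H3K27ac of these samples, so it is no independent evidence of direction. It spans chr13:113764401-114061599, where islands held 20701 WT counts over 133.4 kb and 22394 dKO counts over 186.2 kb (log2 ratio 0.63, interval 0.61 to 0.66). When SEs were rebuilt by stitching islands within the default distance of ROSE and ranking them by counts, the TSS of Gzmk lay in an SE in dKO (rank 639 of 12919 stitched regions) and in a stitched region below the SE limit in WT (rank 2971 of 14376). These ranks compare unlike stretches. The stitched region was 297.2 kb long with 22394 counts in dKO and 87.2 kb long with 6474 counts in WT. In all, 5 of 10 members had a TSS in an SE in WT (Prf1, Ifng, Tnf, Ctsw and Srgn), against 20.0% of genes. In dKO the number was 6 of 10, with Gzmk added, against 25.7% of genes.

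Gzmm (ENSMUSG00000054206.2, chr10:79151765-79158006, plus strand) encodes granzyme M, which cleaves after methionine or leucine. Counts were 5233 over 17.2 kb in WT, in 4 islands, and 4398 over 30 kb in dKO, in 6 islands. The scaled values of 63.3 and 76.3 CPM gave a log2 ratio of 0.27 (0.21 to 0.33). Gzmm combined the largest gain in width among the members (0.80, like Prf1) with the largest loss in depth (-0.53). At the TSS itself, the island widened from 4.0 kb with 606 counts in WT to 9.6 kb with 912 counts in dKO, a log2 ratio of 1.11 (0.96 to 1.26) at a depth ratio of -0.15. The region with the most counts lay upstream, at the Cdc34 promoter, with 2852 WT and 1700 dKO counts (log2 ratio -0.23, interval -0.31 to -0.14). Leaving out regions with the promoter of another gene brought the log2 ratio of Gzmm to 1.15. The window also held 3 weak dKO-only regions of 113 to 318 counts and 1 WT-only region of 160 counts.

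Gzmc (ENSMUSG00000079186.2, chr14:56850238-56853493, minus strand) encodes granzyme C, a member of the granzyme B gene cluster. Its 9 WT islands held 7521 counts over 41.0 kb, and its 6 dKO islands held 8163 counts over 52.2 kb. These equal 91.0 and 142 CPM, a log2 ratio of 0.64 (0.59 to 0.68), of which width made up 0.35 and depth 0.29. Gzmc was the member with the highest depth ratio. The region of Gzmc with the highest depth ratio lay 20.3 to 30.1 kb upstream and contains the promoter of Gzmb, the gene of granzyme B. There WT had 1612 counts on 7.8 kb and dKO 2252 counts on 9.8 kb, so that the log2 ratio was 1.002 (0.91 to 1.09) for counts and 0.67 for counts per kb. Within it, 27.6 to 27.8 kb upstream of Gzmc, was an accessible site of the study's cluster C1. Cluster C1 is a set of DNase-hypersensitive sites with more accessibility in dKO, linked by the study to genes with higher expression in dKO. The Gzmc promoter region itself held 1295 WT and 1310 dKO counts, a log2 ratio of 0.54 (0.43 to 0.65) and a depth ratio of 0.18. Without regions at another promoter, Gzmc had a log2 ratio of 0.52, below the threshold. Granzyme genes resemble each other, and 91.2% of the 50-base sequences in the Gzmc regions occurred once in the genome, the lowest share of the 10 members.

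Srgn (ENSMUSG00000020077.8, chr10:61956581-61990199, minus strand) encodes serglycin, the proteoglycan core on which granzymes and perforin are stored. It had 19211 WT counts over 63.0 kb and 13672 dKO counts over 72.6 kb, or 232 and 237 CPM. The log2 ratio of 0.029 (-0.003 to 0.061) did not exceed the counting error. At the shorter transcripts, whose promoter is printed above, the window gave 17706 and 12427 counts and a log2 ratio of 0.009. The island over that promoter was the deepest of the gene in both lists, with 6.38 CPM per kb in WT and 5.89 CPM per kb in dKO.

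Ctsw (ENSMUSG00000024910.4, chr19:5465240-5468498, minus strand) encodes cathepsin W, a cysteine protease restricted largely to killer lymphocytes. WT had 14699 counts over 61.4 kb and dKO 10700 counts over 67.0 kb, giving 178 and 186 CPM and a log2 ratio of 0.062 (0.026 to 0.097). The TSS region of 47.2 kb also contains the promoters of Ccdc85b, Cfl1, Efemp2, Fibp and Mus81, so its counts cannot be assigned to Ctsw alone. One neighbouring region, 33.1 to 38.9 kb upstream, stood out with 313 WT counts on 2.8 kb and 405 dKO counts on 5.8 kb, for a log2 ratio of 0.89 (0.68 to 1.104) at a depth ratio of -0.16.

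Nkg7 (ENSMUSG00000004612.7, chr7:50692443-50693616, plus strand) encodes a granule membrane protein needed for efficient degranulation. Each list had 5 islands, with 11124 WT counts over 43.8 kb and 10012 dKO counts over 56.2 kb. The log2 ratio was 0.37 (0.33 to 0.41), from 135 CPM in WT and 174 CPM in dKO, with a depth ratio of 0.008. As for Prf1, the borders of the TSS island differed between lists. This island in WT ran from 5.2 kb upstream to 22.2 kb downstream with 8405 counts and in dKO from 10.8 kb upstream to 35.0 kb downstream with 8766 counts. Counting all islands of that merged region gave 11072 WT and 8766 dKO counts, a log2 ratio of 0.18 (0.14 to 0.22). The region is shared with the promoters of Cldnd2, Etfb, Lim2 and Vsig10l. Upstream of it the order was turned, with 1988 WT and 1246 dKO counts (log2 ratio -0.15, interval -0.26 to -0.05). Nkg7 had a log2 ratio of -0.38 without regions at another promoter and of -0.61 when islands were counted by their midpoint. Both rules left out the TSS island of both lists. The study lists chr7:50650001-50800000 as a dKO-specific hub of chromatin interactions for Nkg7. Islands there summed to 13577 WT counts over 57.0 kb and 10603 dKO counts over 64.2 kb, for a log2 ratio of 0.16 (0.13 to 0.20) and a depth ratio of -0.009. The Nkg7 promoter printed above holds both a Runx and a T-box core.

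Serpinb9 (ENSMUSG00000045827.4, chr13:33095119-33109826, plus strand) encodes an intracellular inhibitor of granzyme B that protects killer cells from their own granules. WT had 8 islands with 6835 counts over 33.0 kb, and dKO had 16 islands with 7209 counts over 48.2 kb. The scaled counts of 82.7 and 125 CPM gave a log2 ratio of 0.60 (0.55 to 0.64), with 0.55 from width and 0.05 from depth. Of its 12 merged regions, 7 had islands in both lists and 5 had a dKO island alone, including 2 inside the gene body where WT had no island. The scaled count was higher in dKO in all 7 shared regions, against 34 of the 46 shared regions of the 10 genes and 43.4% of all shared regions, with log2 ratios from 0.24 at the TSS to 1.12 at 23.7 to 29.1 kb upstream. The latter region overlaps the neighbouring gene Serpinb6b. Unlike Prf1 and Nkg7, Serpinb9 kept the same value (0.60) when islands were clipped at the window or merged. The call was lost when weak islands were left out, with a log2 ratio of 0.30 for islands of at least 200 counts and 0.48 for islands of at least 3 CPM.

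Accessible sites of cluster C1 assigned by the study to Serpinb9 lay 37.1 and 1.8 kb upstream of the TSS and 68.6 kb downstream of it. The study chose C1 sites by DNase accessibility, a separate assay, and by a link to genes with higher expression in dKO. Here the positions alone were used. The paper already reports that H3K27ac at C1 sites changed with accessibility, so higher H3K27ac there is not a separate finding. The 2 upstream sites are shown because they lie in islands of both lists within the window, and capitals mark the same cores as above.
Serpinb9 accessible site, chr13:33058060-33058211, plus strand: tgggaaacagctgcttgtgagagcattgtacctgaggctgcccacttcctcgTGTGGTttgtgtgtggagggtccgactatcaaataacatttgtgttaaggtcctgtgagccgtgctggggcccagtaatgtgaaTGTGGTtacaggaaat
Serpinb9 accessible site, chr13:33093282-33093488, plus strand: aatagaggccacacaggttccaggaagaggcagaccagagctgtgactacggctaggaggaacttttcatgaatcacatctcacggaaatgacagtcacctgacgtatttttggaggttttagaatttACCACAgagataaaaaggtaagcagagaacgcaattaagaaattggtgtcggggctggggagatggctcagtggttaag
The site 37.1 kb upstream holds 2 Runx cores and lies in a region with 2720 WT and 2412 dKO counts, a log2 ratio of 0.35 (0.27 to 0.43) and a depth ratio of 0.27. This site lies inside the neighbouring gene Serpinb6b, and its region holds the Serpinb6b promoter, so these counts cannot be assigned to Serpinb9 alone. At the site 1.8 kb upstream, which holds 1 Runx core, the island had 419 WT counts over 2.4 kb and 421 dKO counts over 2.6 kb. This gave a log2 ratio of 0.53 (0.33 to 0.72) and a depth ratio of 0.41, the highest depth ratio among the shared regions of Serpinb9. The third site, outside the window, lay in a region with 1129 WT and 1578 dKO counts, a log2 ratio of 1.003 (0.89 to 1.11) and a depth ratio of 0.76. Its sequence, not printed here, holds 1 Tcf1 and Lef1 core, 1 Runx core and 2 T-box cores.

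Ifng (ENSMUSG00000055170.3, chr10:117878103-117882948, plus strand) encodes interferon gamma, the main cytokine by which CD8+ T cells activate macrophages. It was the member with the least change in width, with 5765 counts over 35.8 kb in 6 WT islands and 4464 counts over 36.0 kb in 8 dKO islands. Its log2 ratio was 0.15 (0.09 to 0.21), of which depth made up 0.14, from 69.7 CPM in WT and 77.4 CPM in dKO. The TSS region differed by less than its counting error, with 1501 WT and 980 dKO counts (log2 ratio -0.09, interval -0.21 to 0.021). Counting only islands over the gene body gave a log2 ratio of -0.28. Higher scaled counts in dKO were found 4.9 to 9.1 kb upstream (312 WT and 391 dKO counts, log2 ratio 0.84, interval 0.63 to 1.06) and from 9.7 kb upstream (150 WT and 233 dKO counts, log2 ratio 1.16, interval 0.86 to 1.45). Both are weak islands, and 68.9% of 50-base sequences of the latter occurred once in the genome. In both lists, Ifng lay in a rebuilt SE of 803.2 kb, which ranked 11 in WT and 42 in dKO.

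Tnf (ENSMUSG00000024401.8, chr17:35336326-35338952, minus strand) encodes tumour necrosis factor. It had the most counts of the members, 29659 over 83.0 kb in WT and 20213 over 89.2 kb in dKO, equal to 359 and 351 CPM. The log2 ratio of -0.034 (-0.059 to -0.008) was the only negative one, and it changed sign when lists were scaled by shared regions (0.037) or centred on the median region (0.039). The TSS island of Tnf was 51.8 kb wide in WT and 56.8 kb wide in dKO and covers the promoters of Lta, Ltb, Lst1, Aif1 and Prrc2a, so no value of Tnf alone can be given.

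**Figure D4:**
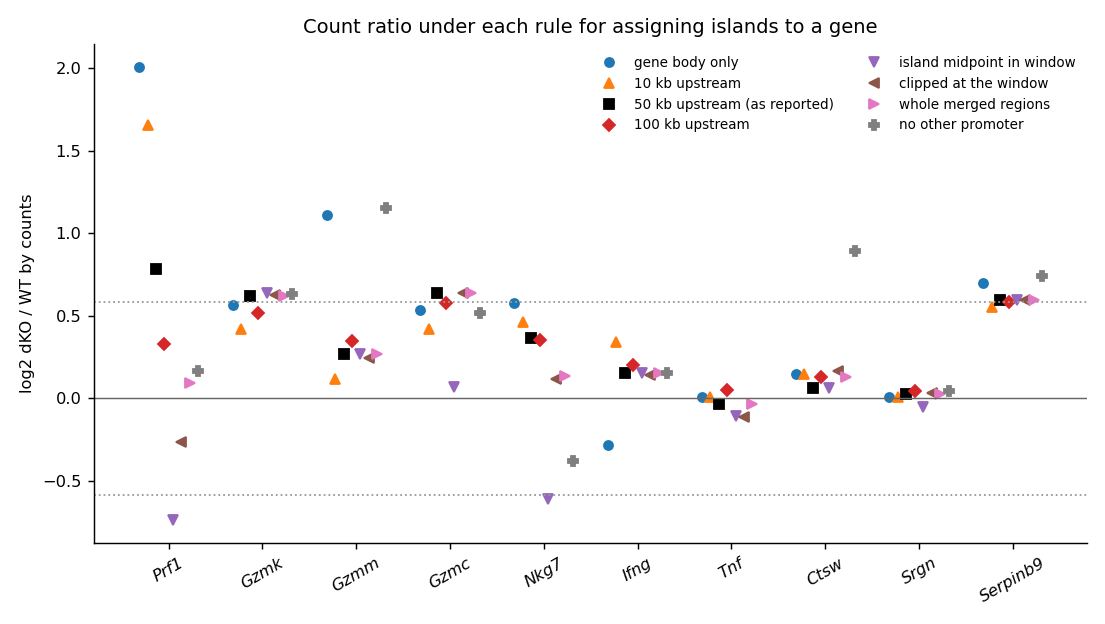
Log2 dKO to WT count ratio of each gene (x axis) under 8 rules for assigning islands to it. Squares mark the window of body and 50 kb upstream, and dotted lines mark a ratio of 1.5. Prf1 ran from -0.74 to 2.01 and Nkg7 from -0.61 to 0.58, whereas Srgn stayed between -0.053 and 0.047, and Tnf has no value without regions of another promoter.

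At the level of regions, the 10 genes comprised 67 merged regions, of which 46 had islands in both lists, 18 in dKO alone and 3 in WT alone. The dKO-only share was 26.9%, against 28.1% of all merged regions, and the WT-only share 4.48%, against 12.8%. The dKO-only regions fell at Gzmk (8), Serpinb9 (5), Gzmm (3), Nkg7 (1) and Srgn (1). All of them were small, with 108 to 408 counts over 1.2 to 4.8 kb and a depth of 1.28 to 1.84 CPM per kb. Their median depth of 1.56 CPM per kb was above that of 33.8% of WT islands on that scaled measure. Unscaled, it was 89.8 counts per kb. Whether the lower total of the dKO list or the calling of weak islands plays a part was not tested. Without an island in the WT list these places have no WT count, and the size of the difference is unknown.

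Of the 46 shared regions, 10 were at least 1.5 times higher in dKO by counts, against 11.1% of all shared regions, and 1 was lower, against 14.6%. The lower region was an intronic one of Gzmk, 19.9 to 23.3 kb into the gene, with 368 WT and 141 dKO counts. By counts per kb, 1 region was higher, against 1.17% of all, namely the one at the Gzmb promoter. Per kb, 2 regions were lower, against 4.51% of all. These were a region 36.2 to 45.8 kb upstream of Tnf at the Ddx39b promoter (-0.61) and a short WT island of 0.6 kb upstream of Gzmc (-0.69).

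To place the members among their pathway, 29 other genes of granule killing were examined, and 27 had islands in both lists. By scaled counts, 12 of the 27 were at least 1.5 times higher in dKO and 3 were lower, against 11.5% of all genes in each direction. By counts per kb, 3 were higher and 1 was lower, against 0.425% and 9.28% of all genes. Their median log2 ratio was 0.47 by counts and 0.027 by counts per kb. Neighbouring genes share islands, so these are fewer independent loci than genes. Some of these islands are also those of members. The windows of Gzmb and Gzmf overlap that of Gzmc, and that of Lta overlaps that of Tnf. Ltb, whose window does not overlap that of Tnf, shares the long TSS island of Tnf. The windows of Serpinb6b and Serpinb9b overlap that of Serpinb9. The pathway list is therefore not separate from the members.

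Among the granzymes, all 5 with islands in both lists were higher by counts, including Gzma (4995 WT and 6381 dKO counts, log2 ratio 0.87, interval 0.82 to 0.93), Gzmb (8733 and 9435 counts, 0.63, interval 0.59 to 0.67) and Gzmf (0.67). Gzmg and Gzmn shared the same islands (565 and 917 counts, 1.22), Gzmd had a dKO island of 231 counts alone, and Gzme had none. None of the granzymes passed 1.5 by counts per kb.

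The 3 genes higher per kb were all among the 9 ligands, cytokines and chemokines, a group with a median log2 depth ratio of 0.13. They were Ccl5 (8916 WT and 16391 dKO counts, log2 ratio 1.40 by counts and 0.74 per kb), Ccl3 (6373 and 11052 counts, 1.31 and 0.61) and Fasl (6461 and 9431 counts, 1.06 and 0.59). Fasl is the death ligand of Fas, and Ccl3 and Ccl5 are chemokines of activated killer cells. Ccl4 was higher by counts (0.96), and Il2, the T cell growth factor, was lower (-0.62). The 10 members hold no gene with a depth ratio of that size.

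Genes of granule processing and release were mostly below the threshold. Of 9, Unc13d, a priming factor of granule fusion, was higher by counts (0.81), while Lyst, a regulator of lysosome size (-0.67), and Ctsh (-2.04, from 1099 WT and 186 dKO counts) were lower. Lamp1, a lysosome membrane protein, was equal by counts (-0.001, interval -0.09 to 0.09) and lower per kb (-0.59). Of the 4 granule serpins other than Serpinb9, Serpinb9b (0.86) and Serpinb1a (0.94) were higher by counts, with depth ratios of 0.085 and 0.027.

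**Figure D5:**
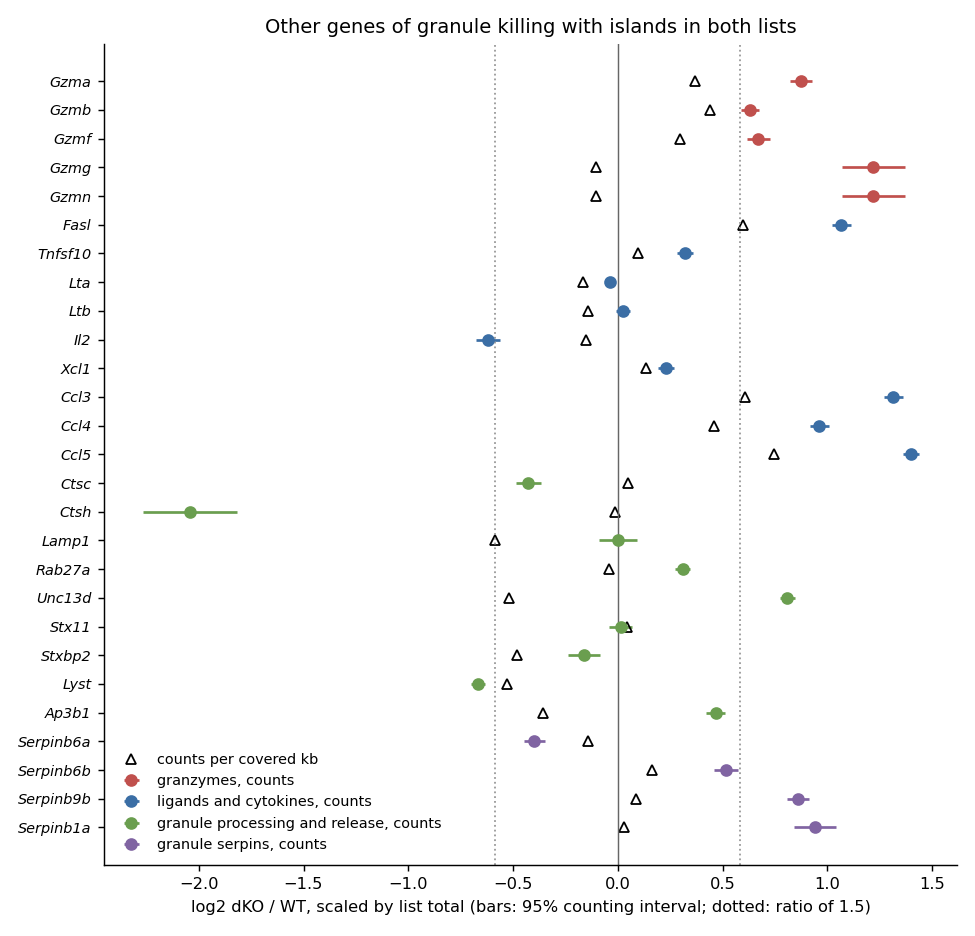
Log2 dKO to WT ratio by counts (filled circles, bars for the 95% counting interval, coloured by group) and by counts per covered kb (open triangles) for the 27 other genes of granule killing with islands in both lists (y axis). Dotted lines mark a ratio of 1.5. The highest circles are those of Ccl5 (1.40) and Ccl3 (1.31), and the lowest is that of Ctsh (-2.04).

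In the sorted cells themselves, markers of the naive CD8+ T cell also differed between lists. Ccr7 (log2 ratio -1.04), Cd8b1 (-0.84) and Il7r (-0.60) were lower in dKO and Cd3e was higher (0.91), while none of these 4 passed 1.5 by counts per kb. No marker fixed for B cells, myeloid cells or CD4 T cells passed 1.5 by counts. B cell markers summed to 455 CPM in WT and 546 CPM in dKO, and myeloid markers to 528 and 510 CPM. These windows also include islands of neighbouring genes, so the sums do not count cells.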

How the data were processed

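H3K27ac ChIP-seq libraries were made from 9 samples (WT, 4 H3K27ac and 1 input; dKO, 3 H3K27ac and 1 input). The authors assessed reads with FastQC, aligned them to mm9, retained uniquely mapped reads with a MAPQ above 10, merged the replicates per genotype and ran SICER 1.1 on each pool, at a window of 200 bp, a gap of 400 bp and an FDR under 0.01. Bowtie2 2.2.5 is named in the submitters' processing notes. The deposited values are read counts per island, not scaled for depth or width. Whether duplicates were removed is not given in the sources used here. Positions were shifted to start from 1, and all 21 chromosomes with islands were present in NCBIM37 with no island past an end.

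Islands sharing at least 1 bp with the window (gene body to 50 kb upstream of the TSS) were summed whole. Counts were divided by the list total (82668007 in WT, 57665047 in dKO). The scaled ratio carries a 95% interval from the Wilson interval of the dKO share. Amplified reads lack molecular identifiers and are not independent, so it covers counting error only. A ratio of 1.5 was called. The log2 count ratio is the sum of the log2 ratios of covered width and of counts per covered kb. No test was made, since each genotype has 1 pooled list. All 10 members were named, and of the pathway list those past 1.5 by counts. Genes named for their counts per kb, and the single regions described, were picked after their values were seen. The members and lists were chosen with earlier results of these data known. Positions of accessible sites, SEs and hubs came from the study's lists, with site starts read as counted from 0, and no value of those lists was used.

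Alternatives changed the scaling, the measure, the window, the assignment of islands, the filter on low islands, the pseudocount and the threshold. Steps were tested on simulated data. Python 3.11.15, numpy 2.4.6, pandas 2.3.3, scipy 1.17.1 and matplotlib 3.10.9 were used. Inputs were not used here. The values of 1 gene among the markers are not reported here.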

Additional observations from a re-analysis of the deposited data

How the results depend on the processing

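No paired analysis was possible because the islands were called on pooled replicates, and leaving out a replicate was likewise not possible. Against 4 members higher, 0 lower and a median log2 ratio of 0.318, counts per covered kb gave 0 higher and a median of -0.03, and a threshold of 2 gave 0. The number higher was 1 with 10 kb upstream (median 0.382; Prf1), 1 with 100 kb upstream (Serpinb9) and 2 with islands of at least 200 counts (median 0.262). Counting islands by midpoint gave 2 higher and 2 lower (Prf1 and Nkg7) with a median of 0.067. The median was 0.389 with shared-region scaling and 0.391 with median centring, both with 4 higher, and 0.55 with gene body only and 0.154 with clipping, both with 3 higher. In 2 alternatives chosen after seeing the data, it was 0.143 with whole merged regions (3 higher) and 0.52 without regions at another promoter (4 higher, where Gzmm at 1.15 and Ctsw at 0.89 took the place of Prf1 at 0.16 and Gzmc at 0.52). The rule on other promoters also dropped the TSS regions of Prf1, Ctsw and Nkg7, which hold such promoters. Prf1 then rested on the region 4.6 to 14.2 kb upstream alone, and Ctsw on the weak region 33.1 to 38.9 kb upstream (313 WT and 405 dKO counts). Prf1 turned to -0.021 per kb, -0.737 by midpoint and -0.263 by clipping, and Gzmk to -0.039 per kb. Of members not called, Ifng was at -0.281 with gene body only. By counts per kb, 0 members were called, but 1 was with gene body only (Prf1, -0.77), 100 kb upstream (Gzmm, -0.59) and a threshold lower than 1.5 (Gzmm, -0.53). Of the pathway genes, 12 were higher and 3 lower, against 3 and 1 per kb, 5 and 1 at a threshold of 2, and 5 lower with 10 kb upstream or that lower threshold. The share of all genes called higher and lower was 13.4% and 9.2% with shared-region scaling. The cause of these changes was not tested. By construction, clipping drops the parts of islands past the window, whereas the midpoint rule drops whole islands whose midpoint lies outside it. Without counts per replicate, biological spread could not be set against any of these differences, and a weak island missed in 1 list has no count.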
